A study of Mus musculus with 6 samples.

Results

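The 10 genes of glutathione synthesis and NADPH supply were measured by bulk RNA-seq in mouse ILC3s (group 3 innate lymphoid cells), lymphocytes of mucosal tissue that lack rearranged antigen receptors. The genes, chosen by symbol among 55401 gene identifiers of the deposited count table, were Gclc, Gclm, Gss, Gsr, G6pdx, Pgd, Taldo1, Tkt, Me1 and Idh1. All 10 were found under 1 identifier each and all 10 passed the filter on low counts, as did 18253 genes in all. The PEox group held 3 libraries of ILC3s exposed to PEox beforehand, and the vehicle group held 3 libraries of ILC3s given vehicle. Both groups were wild type and their cells were taken from the lamina propria of the small intestine. No strain or further allele is given in the sources used here, and pups are named in a protocol text only. PEox is not spelled out in the labels. In work on ferroptosis, a cell death driven by peroxidised lipids, the name usually stands for oxidised phosphatidylethanolamine. Dose, exposure time and route were not given either, and the labels leave unsaid whether each library is a different animal, so the p-values below speak of the spread among 6 libraries, which may be technical.

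Glutathione is the main small-molecule thiol of cells and the electron donor with which lipid peroxides are reduced. It is made from glutamate, cysteine and glycine in a pair of ATP-dependent steps, of which the ligation of glutamate to cysteine is the slow one. Once oxidised, it is returned to its reduced form at the expense of NADPH. Sources of that NADPH include the oxidative branch of the pentose phosphate pathway and cytosolic malic enzyme and isocitrate dehydrogenase. Several of these genes are textbook targets of the transcription factor NRF2, which binds antioxidant response elements with the core TGACNNNGC.

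Library totals ranged from 56252806 to 57532484 counts in PEox and from 59524577 to 66849230 in vehicle, and no member had fewer than 244 counts in any library. That protocol text speaks of sorted EpCAM+ CD45- epithelial cells, whereas the cell type label names ILC3s. The 15 ILC3 marker genes summed to 7719 to 7748 CPM (counts scaled to a common library total with TMM factors) in PEox and 14458 to 14706 CPM in vehicle, and the 13 epithelial genes to 61.6 to 69.6 CPM in PEox and 99.0 to 113 CPM in vehicle. Of the 15 ILC3 genes 1 was higher and 10 were lower in PEox, against 18.3% higher and 18.8% lower among all tested genes. Erythroid and stromal sums were higher in the PEox libraries. The erythroid sum was 5118 to 5805 CPM in PEox and 2753 to 2800 CPM in vehicle, with 5 of 8 tested genes higher and none lower, nearly all of it haemoglobin. Alas2, the erythroid enzyme of haem synthesis, was at 26.6 CPM in PEox and 4.82 CPM in vehicle (means, n = 3 each), and Slc4a1, a red cell membrane protein, lay under 1 CPM in every library. Stromal and endothelial genes summed to 327 to 359 CPM in PEox and 221 to 248 CPM in vehicle, with 4 of 7 tested genes higher and 1 lower. Of its endothelial genes, Pecam1 averaged 92.1 CPM in PEox and 77.0 CPM in vehicle and did not pass, and Cdh5 was under 0.1 CPM in every library. Sums were lower in PEox for B and plasma cells (41.4 to 47.4 against 296 to 313 CPM in vehicle), T cells (745 to 799.8 against 1050.1 to 1073 CPM), mast cells and basophils (26.8 to 35.7 against 165 to 171 CPM) and myeloid cells (113 to 162 against 234 to 246 CPM). Most of the T cell sum came from Trbc1 and Trbc2, at 283 and 443 CPM in PEox and 369 and 584 CPM in vehicle (means, n = 3 each). Of 10 tested T cell genes 1 was higher and 7 were lower. The part of these other cells in the members' results was not tested, and in bulk RNA fewer cells of a type and less RNA per cell cannot be told apart.

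The comparison asked how PEox exposure changed the genes that make glutathione and the NADPH that keeps it reduced. With edgeR's quasi-likelihood test, p-values adjusted by Benjamini-Hochberg over 18253 genes and a threshold of 0.05, 8 of the 10 members were higher in PEox, Tkt was lower and Taldo1 did not pass. Among all tested genes 37.1% were called, 18.3% higher and 18.8% lower. Calls were more common among abundant genes. With at least 5 CPM in 3 libraries, a filter that all 10 members passed, 6507 of 10743 genes were called, 3322 of them higher. The CPM ranges of the groups did not overlap for any of the 10 members, against 50.6% of all tested genes. The median log2 fold change (PEox over vehicle) was 0.63 over the members and 0.00 over all tested genes. Increases were largest for Me1, Gclm, Gclc and G6pdx, each more than 2-fold, and smallest for Gss. Summed over the members, the level was 2763, 2801 and 2743 CPM in PEox libraries 1 to 3 and 1573, 1540.2 and 1452 CPM in vehicle libraries 1 to 3. G6pdx alone made up 34.0% to 34.3% of that sum in PEox and 26.3% to 29.6% in vehicle.

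**Figure D1:**
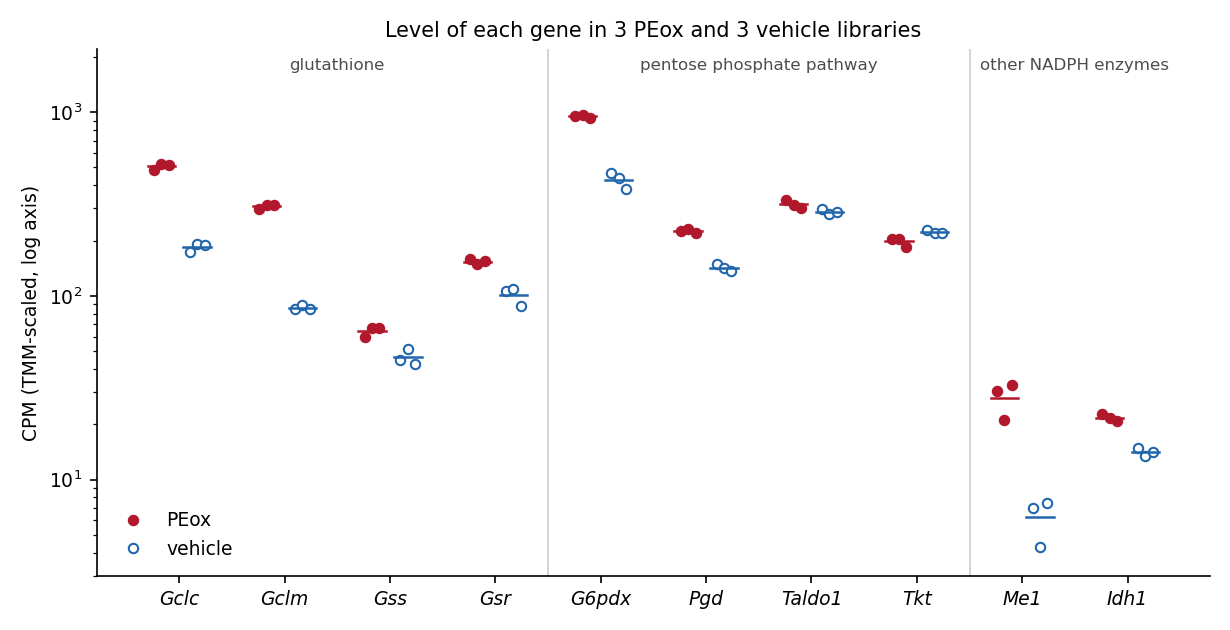
TMM-scaled CPM on a log axis for each of the 10 genes, with 1 point per library, filled for PEox and open for vehicle, and lines at the group means. The PEox points lie above the vehicle points for every gene except Tkt, and the gap is wide for Gclc, Gclm, G6pdx and Me1 and narrow for Taldo1 and Tkt.

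Sequences around an annotated start are shown for the 4 members with a window that held the antioxidant response element core. All 4 were called higher in PEox, and so were Gss and Idh1, whose windows held no match. Windows of 300 bases, from 250 before to 50 after an annotated start, were taken from RefSeq on GRCm38.p6 for 8 of the 10 members. Each is printed 5′ to 3′ on the gene's strand, with the match to TGACNNNGC, searched on both strands, in capitals. The Gclm window is chr3:122245307-122245606 (plus strand), that of G6pdx chrX:74428831-74429130 (minus strand), that of Me1 chr9:86695865-86696164 (minus strand) and that of Pgd chr4:149166033-149166332 (minus strand).

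Gclm: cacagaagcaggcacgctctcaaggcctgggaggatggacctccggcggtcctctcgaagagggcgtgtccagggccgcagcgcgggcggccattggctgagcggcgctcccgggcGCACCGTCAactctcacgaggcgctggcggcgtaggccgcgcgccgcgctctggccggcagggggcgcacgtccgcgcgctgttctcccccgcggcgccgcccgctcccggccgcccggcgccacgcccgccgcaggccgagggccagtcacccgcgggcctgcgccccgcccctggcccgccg

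G6pdx: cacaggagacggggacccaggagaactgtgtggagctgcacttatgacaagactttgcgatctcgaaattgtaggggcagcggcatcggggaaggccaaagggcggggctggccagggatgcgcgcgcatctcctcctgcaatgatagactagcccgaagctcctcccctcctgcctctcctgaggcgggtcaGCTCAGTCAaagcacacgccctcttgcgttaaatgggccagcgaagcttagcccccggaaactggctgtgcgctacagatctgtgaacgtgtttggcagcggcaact

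Me1: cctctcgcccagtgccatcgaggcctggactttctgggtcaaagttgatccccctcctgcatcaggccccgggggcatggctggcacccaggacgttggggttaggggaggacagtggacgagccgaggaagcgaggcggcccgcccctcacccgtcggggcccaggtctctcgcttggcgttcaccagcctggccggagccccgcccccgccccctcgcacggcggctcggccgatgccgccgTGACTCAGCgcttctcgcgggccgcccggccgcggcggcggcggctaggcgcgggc

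Pgd: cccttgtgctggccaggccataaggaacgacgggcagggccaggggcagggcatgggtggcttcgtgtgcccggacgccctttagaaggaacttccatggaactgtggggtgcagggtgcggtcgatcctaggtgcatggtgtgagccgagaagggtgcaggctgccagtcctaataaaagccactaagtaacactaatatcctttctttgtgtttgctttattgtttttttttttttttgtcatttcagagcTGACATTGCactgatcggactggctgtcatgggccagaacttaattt

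In Gclm the match began 134 bases before the start and read TGACGGTGC on the opposite strand. The G6pdx match began 57 bases before the start and read TGACTGAGC on the opposite strand. In Me1 it was TGACTCAGC on the gene's own strand, beginning 6 bases before the start. The Pgd match, TGACATTGC, began 3 bases past the start in the window of a second annotated start. That start lies downstream of the other Pgd start (window chr4:149166656-149166955), so this match is inside the gene and not before it. The windows of the other Pgd and Me1 starts had none. No match was found in the windows of Gss, Taldo1, Tkt and Idh1. The E-box CACGTG, a palindrome that reads the same on either strand, was found in none of the 8 members and in 8.09% of all genes with a window.

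Of 27025 genes with a window, 3781 held TGACNNNGC, and 4 of 8 members did, Pgd at its second start only. The log2 fold changes of the 4 members with a match ran from 0.66 (Pgd) to 2.16 (Me1), and those of the 4 without from -0.18 (Tkt) to 0.61 (Idh1). Gclc (1.46) and Gsr (0.60) had no window and belong to neither set. Whether a match bears on the change of a member was not tested. Pgd and Idh1 lay within their standard errors of each other. Across all tested genes with a window 23.5% of 1962 genes with the match and 22.0% of 9624 genes without it were called higher in PEox, and 22.2% and 20.1% lower. A match describes letters in this window and is not evidence of binding.

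Transcripts of both subunits of glutamate-cysteine ligase, the enzyme of the slow step, were higher in PEox. Only RNA was measured here. Gclc, the catalytic subunit, was at 486, 520.4 and 517 CPM in PEox libraries 1 to 3 and at 174, 191 and 188 CPM in vehicle libraries 1 to 3. Every PEox library stood far above every vehicle library. Group means were 508 ± 19.1 CPM in PEox and 184 ± 9.02 CPM in vehicle (SD, n = 3 each). The log2 fold change was 1.46 (SE 0.05, adjusted p by edgeR = 1.23e-06), a 2.76-fold increase. Of all tested genes 3.18% had a larger log2 fold change.

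Gclm encodes the modifier subunit, which raises the affinity of the ligase for glutamate and relieves its inhibition by glutathione. It reached 299, 313 and 313 CPM in PEox libraries 1 to 3, against 84.5, 89.5 and 85.3 CPM in vehicle libraries 1 to 3. Replicates were tight in both groups, at coefficients of variation of 2.67% in PEox and 3.12% in vehicle. On the log2 scale the change was 1.83 (SE 0.05, adjusted p by edgeR = 4.5e-07), or 3.57-fold, and 1.75% of tested genes had a larger one. Gclm overlaps an antisense transcript, Gm17494, at 68.7, 23.4 and 37.7 CPM in PEox and 58.0, 68.0 and 72.8 CPM in vehicle. Whether counting used strand is not given, so reads from the overlap could be counted for either. The antisense gene spread widely within PEox and did not pass the test (adjusted p by edgeR = 0.193), and Gclm gained 222 CPM between the means.

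Because Gclm gained more than Gclc, the transcript ratio of the modifier to the catalytic subunit was higher in PEox. Per kilobase of the longest protein-coding transcript it was 0.377, 0.368 and 0.371 in PEox libraries 1 to 3 and 0.298, 0.288 and 0.278 in vehicle libraries 1 to 3. These ratios do not depend on library scaling, and the groups did not overlap. The difference in mean log2 ratio was 0.37, with SDs of 0.02 in PEox and 0.05 in vehicle (n = 3 each; exact two-sided permutation test, p = 0.1, the smallest that 3 against 3 libraries allow). In both groups Gclc remained the more abundant transcript per length.

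Gss encodes glutathione synthetase, which adds glycine to complete the tripeptide. Its level was 59.6, 66.6 and 66.9 CPM in PEox libraries 1 to 3 and 45.0, 51.4 and 42.4 CPM in vehicle libraries 1 to 3, so every PEox library stood above every vehicle library. Its change of 0.48 on the log2 scale (SE 0.10, adjusted p by edgeR = 0.00508) was the smallest among the members that rose. Its neighbour on the opposite strand, Acss2, which encodes an acetyl-CoA synthetase, overlaps it and was also higher by 0.58 on the log2 scale (SE 0.13, adjusted p by edgeR = 0.00733). The ratio of Gclc to Gss per kilobase was 4.67, 4.48 and 4.43 in PEox libraries 1 to 3, against 2.22, 2.13 and 2.54 in vehicle libraries 1 to 3. The transcript of the catalytic subunit of the slow step thus gained on that of the synthetase by 0.98 on the log2 scale (exact permutation p = 0.1).

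Gsr, glutathione reductase, uses NADPH to regenerate glutathione from its disulfide. It was at 158, 148 and 154 CPM in PEox libraries 1 to 3 and at 106, 109 and 88.3 CPM in vehicle libraries 1 to 3. Vehicle library 3 was the low one of its group, and no vehicle library came near the PEox range. Means were 154 ± 5.0 CPM in PEox and 101 ± 11.2 CPM in vehicle (SD, n = 3 each), a log2 difference of 0.60 (SE 0.08, adjusted p by edgeR = 0.000765).

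Of the 4 members in the pentose phosphate pathway, both NADPH-yielding dehydrogenases of its oxidative branch were higher in PEox. Of the 2 members in its non-oxidative branch, which interconverts sugar phosphates without making NADPH, 1 was lower and 1 did not pass. G6pdx, glucose-6-phosphate dehydrogenase, the committed step, was at 949, 961 and 934 CPM in PEox libraries 1 to 3 and at 465, 439.9 and 382 CPM in vehicle libraries 1 to 3. The groups were far apart, and vehicle spread more (coefficient of variation 9.90%) than PEox (1.43%). This was a log2 change of 1.14 (SE 0.07, adjusted p by edgeR = 1.08e-05), or 2.21-fold. In absolute terms this was the largest gain of the 10 genes, 519 CPM between the means.

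Other loci could share reads with G6pdx. Its near-identical retrocopy G6pd2 had 15, 14 and 15 counts in PEox and 8, 4 and 4 in vehicle, against at least 24061 counts of G6pdx in any library, and did not pass the test (adjusted p by edgeR = 0.239). Ikbkg, which encodes the NEMO subunit of the IκB kinase complex, overlaps G6pdx on the opposite strand. Its level was 90.7, 85.2 and 95.6 CPM in PEox libraries 1 to 3 and 42.4, 43.4 and 44.9 CPM in vehicle libraries 1 to 3, a log2 change of 1.05 (SE 0.07, adjusted p by edgeR = 1.91e-05). Both genes of this locus were higher by a like factor, and without strand information reads in the overlap cannot be assigned.

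Pgd encodes 6-phosphogluconate dehydrogenase, the second NADPH-yielding step of the branch. Levels were 224, 230.4 and 219 CPM in PEox libraries 1 to 3 and 149, 142 and 136 CPM in vehicle libraries 1 to 3. The groups were well apart, and Pgd rose by 0.66 on the log2 scale (SE 0.05, adjusted p by edgeR = 4.56e-05), or 1.58-fold, a smaller change than that of G6pdx.

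Taldo1 and Tkt encode transaldolase and transketolase, enzymes of the non-oxidative branch. Taldo1 was at 331, 314 and 302 CPM in PEox libraries 1 to 3 and at 297, 279 and 287 CPM in vehicle libraries 1 to 3, groups that were adjacent but did not overlap. The log2 value of 0.13 (SE 0.05, adjusted p by edgeR = 0.0757) did not pass, although it did under 4 alternatives, reaching 0.53 after a loess trend on transcript length and GC content was taken out (adjusted p by edgeR = 7.19e-05). Tkt was at 204, 205 and 184 CPM in PEox libraries 1 to 3 and at 229.7, 221 and 221 CPM in vehicle libraries 1 to 3, with PEox library 3 the lowest of all. Its log2 value was -0.18 (SE 0.06, adjusted p by edgeR = 0.0363), and the call was lost under 8 of 14 alternatives, among them library size scaling, at -0.043 (adjusted p by edgeR = 0.601), and leaving out any library except PEox library 2.

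These 4 members were also set against each other within each library. The ratio of G6pdx to Tkt per kilobase was 5.65, 5.71 and 6.16 in PEox libraries 1 to 3 and 2.46, 2.42 and 2.11 in vehicle libraries 1 to 3, a log2 difference of 1.33 (exact permutation p = 0.1). For Pgd to Taldo1 it was 0.417, 0.451 and 0.445 in PEox libraries 1 to 3 and 0.308, 0.313 and 0.291 in vehicle libraries 1 to 3, a log2 difference of 0.53 (exact permutation p = 0.1). This contrast depends on the length and GC trend. With the trend taken out, the log2 fold change of Pgd was 0.67 and that of Taldo1 0.53. Those of G6pdx and Tkt stayed far apart, at 1.30 and -0.11. G6pdx and Pgd over Tkt and Taldo1, summed per kilobase, gave 1.5, 1.59 and 1.62 in PEox libraries 1 to 3 and 0.838, 0.841 and 0.736 in vehicle libraries 1 to 3. The sum of G6pdx and Pgd thus exceeded that of Tkt and Taldo1 in each PEox library and in no vehicle library.

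**Figure D2:**
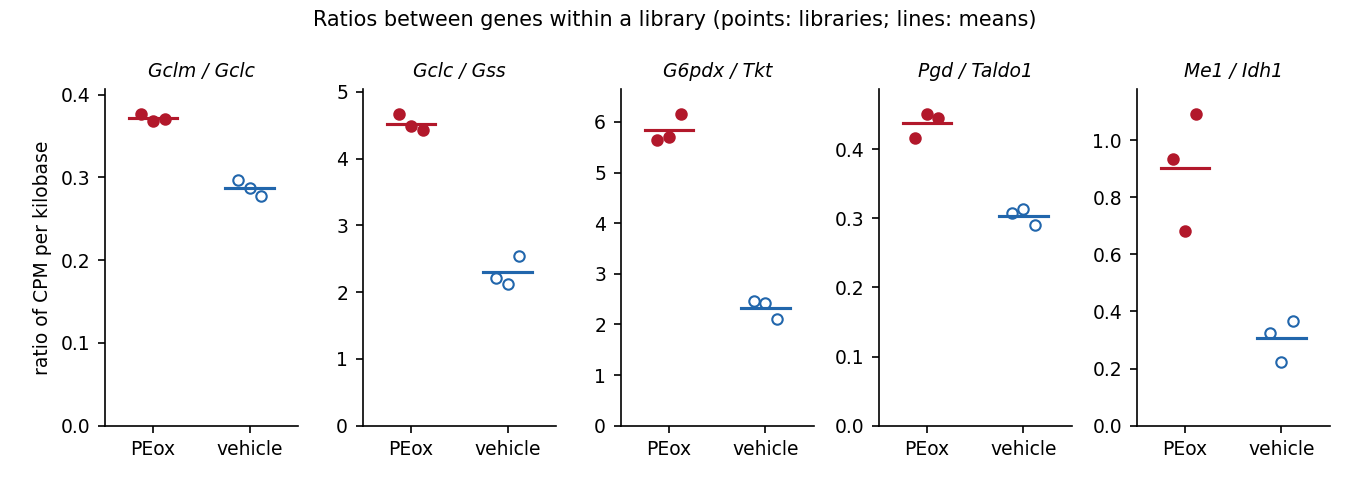
Ratios of TMM-scaled CPM per kilobase between pairs of genes within each library, with 1 point per library, lines at the group means and axes from 0. All 5 ratios are higher in the 3 PEox libraries than in the 3 vehicle libraries, and the largest log2 difference is the 1.57 of Me1 to Idh1.

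Both members outside the pathway, which encode cytosolic NADPH enzymes, rose, and Me1 had the largest log2 fold change of the 10 genes. Me1, malic enzyme, which turns malate into pyruvate, was at 30.2, 21.0 and 32.6 CPM in PEox libraries 1 to 3 and at 6.97, 4.30 and 7.45 CPM in vehicle libraries 1 to 3. Library 2 was the low one in each group, yet every PEox library stood well above every vehicle library. Me1 rose by 2.16 on the log2 scale (SE 0.25, adjusted p by edgeR = 0.000288), or 4.47-fold, with 1.02% of tested genes above it. Its standard error was also the widest of the 10, beside coefficients of variation of 21.9% in PEox and 27.2% in vehicle.

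Idh1, cytosolic isocitrate dehydrogenase, was at 22.6, 21.5 and 20.9 CPM in PEox libraries 1 to 3 and at 14.9, 13.4 and 14.2 CPM in vehicle libraries 1 to 3, with little spread in either group. The rise was 0.61 on the log2 scale (SE 0.11, adjusted p by edgeR = 0.00329), or 1.53-fold. The ratio of Me1 to Idh1 per kilobase was 0.933, 0.682 and 1.09 in PEox libraries 1 to 3 and 0.326, 0.224 and 0.368 in vehicle libraries 1 to 3 (log2 difference 1.57, exact permutation p = 0.1). Of the 5 ratios tested, those other than Gclm to Gclc were chosen after the values were seen, and all 5 had an adjusted p of 0.1.

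**Figure D3:**
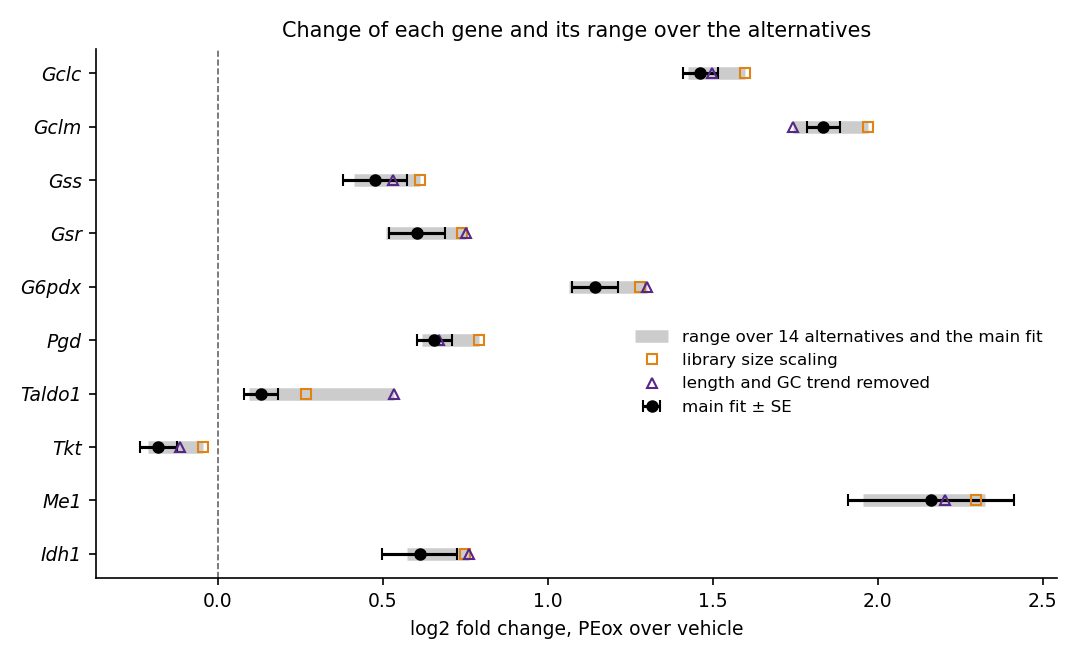
Log2 fold change of PEox over vehicle for each gene, as the edgeR estimate with its standard error (black), the range over that fit and 14 alternatives (grey), and the values under library size scaling (squares) and after the length and GC trend was taken out (triangles). The 8 genes that rose stay above 0.4 throughout, Taldo1 stays above 0 and Tkt below it.

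Compared per kilobase of the longest protein-coding transcript, the genes changed places. In PEox the order was G6pdx (358 ± 5.12 CPM per kilobase), Taldo1 (232 ± 10.5), Gclc (148 ± 5.59), Pgd (101 ± 2.61), Tkt (61.3 ± 3.60), Gsr (57.5 ± 1.87), Gclm (55.1 ± 1.47), Gss (32.8 ± 2.10), Idh1 (9.42 ± 0.39) and Me1 (8.49 ± 1.86; SD, n = 3 throughout). Tkt and Gsr, Gsr and Gclm, and Idh1 and Me1 overlapped in their ranges over PEox libraries, and the other neighbours did not. In vehicle it was Taldo1 (211 ± 6.71 CPM per kilobase), G6pdx (162 ± 16.0), Tkt (69.4 ± 1.59), Pgd (64.2 ± 2.96), Gclc (53.8 ± 2.63), Gsr (37.8 ± 4.17), Gss (23.6 ± 2.36), Gclm (15.5 ± 0.48), Idh1 (6.16 ± 0.33) and Me1 (1.90 ± 0.52; SD, n = 3 throughout), with no overlap between neighbours. G6pdx stood above Taldo1 in PEox and below it in vehicle, Gclc stood above Pgd and Tkt in PEox and below both in vehicle, and Gclm stood above Gss in PEox and below it in vehicle. With the longest transcript of any type as the length, an alternative added after seeing the data, Gclm already stood above Gss in vehicle and Gclc above Pgd, as Gss was at 14.2 and Pgd at 39.1 CPM per kilobase there.

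Other genes of the pathways did not follow the members as a block. The counts in these lists stand against 18.3% higher and 18.8% lower among all tested genes. Of 10 further pentose phosphate genes tested, 2 were higher and 3 lower in PEox, with a median log2 fold change of -0.37. Among the 8 of them with at least 5 CPM in 3 libraries the median was 0.01. Pgls, the lactonase that acts between G6pdx and Pgd in the same branch, was at 105 ± 8.68 CPM in PEox and 211 ± 3.91 CPM in vehicle (SD, n = 3 each), or 0.498 of its vehicle level (adjusted p by edgeR = 1.84e-05). It moved against both dehydrogenases that flank it. Rpe, the ribulose-phosphate epimerase of the non-oxidative branch, averaged 57.6 CPM in PEox and 40.9 CPM in vehicle and rose by 0.49 (SE 0.14, adjusted p by edgeR = 0.026), a call lost when any of 4 libraries was left out. H6pd, the dehydrogenase that does the work of G6pdx inside the endoplasmic reticulum, was at 77.5 ± 16.2 CPM in PEox and 24.5 ± 2.35 CPM in vehicle (SD, n = 3 each) and rose by 1.66 on the log2 scale (SE 0.16, adjusted p by edgeR = 0.000106). Prps1, which makes the nucleotide precursor PRPP from ribose 5-phosphate, fell by 0.87, and Rbks, ribokinase, fell by 0.80 but lost its call under 6 of 14 alternatives.

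Among 12 tested genes of other NADPH production and NAD phosphorylation, 3 were higher and 3 lower (median -0.14, against 0.00 with library size scaling). Nadk, the cytosolic kinase that makes NADP from NAD, was at 363 ± 5.96 CPM in PEox and 236 ± 6.20 CPM in vehicle (SD, n = 3 each) and rose by 0.62 on the log2 scale (SE 0.04, adjusted p by edgeR = 2.01e-05). Mitochondrial Idh2 went the other way from its cytosolic counterpart Idh1, at 35.3 ± 4.15 CPM in PEox and 61.9 ± 1.83 CPM in vehicle (SD, n = 3 each), a log2 change of -0.81 (SE 0.10, adjusted p by edgeR = 0.000406). Mitochondrial Me2 did not pass at -0.13 on the log2 scale (SE 0.10, adjusted p by edgeR = 0.364). Mthfd2, of mitochondrial folate metabolism, fell by 0.50, a call that was lost with the length and GC trend removed, and Glud1, glutamate dehydrogenase, rose by 0.26, a call lost when any of 3 libraries was left out.

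Upstream of the ligase, 4 of 13 tested genes of cysteine and glutamate supply were higher and 2 lower (median 0.43), and with library size scaling 6 were higher and 0 lower. Slc3a2, heavy chain of the importer of cystine, had a log2 rise of 0.89. Slc7a11, the light chain of that importer, rose by 1.27 (SE 0.34, adjusted p by edgeR = 0.0182) at a low level, a call lost when any of 4 libraries was left out, and Slc1a4, a carrier of neutral amino acids, rose by 2.66. Downstream, 3 of 15 tested genes of glutathione breakdown and transport were higher and 6 lower (median 0.07). With library size scaling 4 were higher and 4 lower (median 0.21), and among the 10 with at least 5 CPM in 3 libraries the median was -0.34. Ggt1 and Ggt5, which cleave extracellular glutathione and its conjugates, fell by 2.25 and 0.78, Dpep2, a dipeptidase of the same route, fell by 0.72, and Abcc1, an exporter of glutathione and its conjugates, rose by 0.97.

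**Figure D4:**
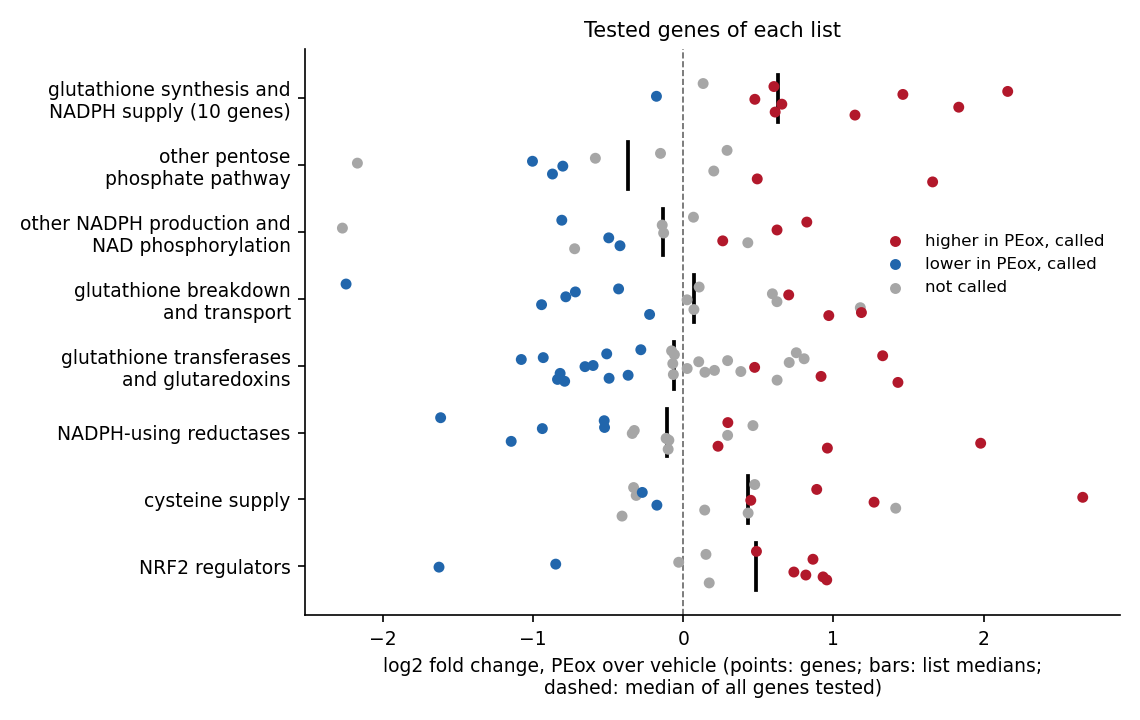
Log2 fold change of PEox over vehicle for every tested gene of the 10 members (top) and 7 further lists, coloured by whether the edgeR test called the gene higher or lower, with bars at list medians and a dashed line at the median of all tested genes. Most members lie to the right, at a median of 0.63, while the other pentose phosphate genes spread to both sides around a median of -0.37, which was 0.01 among the 8 with at least 5 CPM in 3 libraries.

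Directions are relative to the scaling. Under library size scaling the median over all tested genes was 0.14, and 61.9% of its calls were higher in PEox, against 49.3% with TMM. With the trend taken out it was 0.13 and 60.0% of calls were higher. Under both, 9 members were called higher and none lower.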

How the data were processed

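RNA-seq counts of 6 ILC3 libraries, 3 PEox and 3 vehicle by their treatment labels, came from 1 table of raw counts per gene that the authors deposited without normalization, and 0 of its sample columns were left unused. Per the labels' protocols, paired reads were cleaned with fastp and aligned with HISAT2 2.0.5, with edgeR 3.22.5 listed as well in the submitters' processing notes. The counter, genome build, annotation and strandedness are not stated in any source used here, which leaves overlapping genes uncertain.

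Symbols came from a table of gene names that covered 55141 of 55401 identifiers, and for a symbol with several identifiers the one with most counts was used. Counts were tested in R 4.3.3 with edgeR 4.0.16 (filterByExpr, TMM, robust quasi-likelihood test, group as the single term, Benjamini-Hochberg adjustment over 18253 genes). SE was taken as the log2 value over the square root of F. Ratios used exact permutation tests (scipy 1.17.1) and GENCODE M21 transcript lengths, which need not be those behind the counts. Alternatives, with limma 3.58.1 and DESeq2 1.42.0 among them, are given in the closing section. Totals were 56252806 to 66849230 counts, and spread between libraries beyond sampling noise set the precision (chi-square per gene of at least 15.6 within groups). On simulated data for PEox against vehicle, 69% of 100 genes altered by a log2 value of 1 and 94% of 100 altered by 2 were recovered among 17565 genes, and 5 of 17365 unchanged genes were called.

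The members and lists were chosen with earlier results of these data known. Named genes were the 10 members, loci that overlap or copy them, NRF2 and its regulators Keap1 and Bach1, and up to 4 genes per list with the smallest p-values. Me2, Rpe, Maff, Cul3, Alas2, Slc4a1, Pecam1 and Cdh5 were named after their values were seen. A few others under this rule are not reported here.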

Additional observations from a re-analysis of the deposited data

How the results depend on the processing

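All 14 alternatives gave each of the 10 members the direction reported, and for Gclc, Gclm, Gss, Gsr, G6pdx, Pgd, Me1 and Idh1 also the call. Taldo1 was called higher with library size scaling (0.27), DESeq2 (0.14) and the length and GC trend removed (0.53), and ran from 0.10 to 0.16 when each library was left out, called without PEox library 3. Tkt was not called with library size scaling (-0.043), no low count filter (-0.19) or the trend removed (-0.11), and ran from -0.21 to -0.13 with a library left out. In these 3 settings 0 members were called lower, and 0 to 1 with a library left out. The causes were not tested. Of the 7 further lists 26 genes were called higher and 32 lower, against 34 higher and 24 lower with library size scaling and 30 higher and 21 lower with the trend removed, so the majority turned. With a library left out, 17 to 25 were higher and 22 to 29 lower, the count of 17 being without vehicle library 1. The log2 difference in the ratio of Gclm to Gclc ran from 0.35 to 0.40 with a library left out. Across the table, leaving a library out gave 2530 to 3113 genes higher and 2738 to 3480 lower, against 3337 and 3438. The replicate number as a block kept 8 members higher and 1 lower, with Tkt at -0.18 (adjusted p = 0.0448), and 3018 genes higher and 3141 lower. Deviations of same-numbered libraries correlated at -0.01 to 0.01 and not every library correlated best with its own number, so the pairing has no backing in these data. Depth limits Me1 most among the members, at 244 counts in its lowest library, and G6pd2 had 4 to 15 counts.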

Other observations

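Genes that use glutathione or NADPH were called in both directions. The counts in this section stand against 18.3% higher and 18.8% lower among all tested genes. Among 29 tested glutathione transferases, glutaredoxins and glyoxalase-route genes, 4 were higher and 11 lower in PEox, with a median log2 fold change of -0.06, against 0.08 under library size scaling and 0.30 once the length and GC trend was taken out, where 8 were higher and 6 lower. Esd, which hydrolyses S-formylglutathione, was at 740.1 ± 42.2 CPM in PEox and 275 ± 3.11 CPM in vehicle (SD, n = 3 each), a log2 rise of 1.43 (SE 0.05). Glrx5, a mitochondrial glutaredoxin of iron-sulfur cluster assembly, fell by 0.84, Gsto1, an omega-class transferase, by 0.82 and Gstp1, a pi-class transferase, by 0.60. The Gstp1 value was -0.03 and not called with the length and GC trend removed, and Gstp1 has close copies in Gstp2 and Gstp3, so its counts are uncertain.

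NADPH-using reductases were divided, with 4 of 16 higher and 5 lower (median -0.11, against 0.03 with library size scaling and 0.06 with the trend removed). Nqo1, a quinone reductase, rose by 1.98 and Txnrd1, the cytosolic thioredoxin reductase, by 0.96. Akr1b3, an aldose reductase, fell by 0.94. Of 11 NRF2 regulators, 6 were higher and 2 lower (median 0.49). Nfe2l2, which encodes NRF2, was at 167 ± 7.25 CPM in PEox and 119 ± 7.19 CPM in vehicle (SD, n = 3 each), a log2 rise of 0.49 (SE 0.06, adjusted p by edgeR = 0.000556). Its partner Mafg rose by 0.96, Mafk by 0.86 and Sqstm1, the p62 gene, by 0.93, while Maff, another small MAF protein, fell by 1.63. Of 2 ubiquitin ligase subunits in the list, Rbx1 fell by 0.85 and Cul3 rose by 0.82. Keap1, the sensor that holds NRF2 in check, was at 131 ± 5.69 CPM in PEox and 118 ± 3.81 CPM in vehicle (SD, n = 3 each; adjusted p by edgeR = 0.0776) and Bach1, a repressor at the same sites, at 50.9 ± 5.07 CPM in PEox and 45.1 ± 4.45 CPM in vehicle (SD, n = 3 each; edgeR adjusted p = 0.27). Neither passed the test, although Keap1 did under library size scaling and DESeq2.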
